A study of Mus musculus with 10 samples.

Results

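The WFDC genes encode small secreted proteins built around the whey acidic protein (WAP) domain, and 8 of them were followed across sorted medullary thymic epithelial cells (mTECs) with and without Fezf2. The genes are Wfdc1, Wfdc2, Wfdc3, Wfdc5, Wfdc12, Wfdc15a, Wfdc15b and Slpi, out of 18194 genes with a probe set of a single gene symbol. They were picked by symbol. Where a gene had several probe sets, the probe set was chosen by its mean signal over all 10 arrays, which mattered for Wfdc3 alone, with 9 probe sets for the 8 genes. The difference between genotypes was not part of that choice, but the family was proposed with earlier results on these arrays known, in which Wfdc12 and Wfdc15b were already seen to be higher without Fezf2. Their changes are therefore no independent support for a pattern of the family.

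All 10 arrays carried RNA of thymic cells from mice aged 3 weeks of C57BL/6 background, sorted as CD45-, EpCAM+ and CD80hi, that is, depleted of leukocytes, epithelial and mature. In the first group of 5 arrays, WT 1 to WT 5, the cells were wild type, and in the other, KO 6 to KO 10, the genotype was Fezf2 KO. The labels give neither the allele of the knockout, nor any Cre line that made it, nor whether each array stood for its own mouse. The p-values below measure the spread between arrays only, which may be technical.

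A WAP domain is a fold of a short chain held by a core of disulfide bonds between conserved cysteines, and several of these proteins block serine proteases or kill bacteria. Slpi, the secretory leukocyte peptidase inhibitor, blocks neutrophil elastase and cathepsin G in the fluids that cover mucosa. Wfdc2, also known as HE4, is a product of epididymis and airway epithelium, and Wfdc1, also known as ps20, was described in prostate stroma. mTECs transcribe genes of many peripheral organs so that developing T cells meet their products, and Fezf2 is a zinc finger transcription factor on which part of that program depends.

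Fezf2 itself separated the genotypes as labelled, with a signal of 5054 to 5895 on the WT arrays and 12.1 to 18.3 on the KO arrays. The sorted cells carried the epithelial markers Epcam, at 7344 ± 232 in WT and 7695 ± 261 in KO (SD, n = 5), and Krt8, at 13068 ± 805 and 12854 ± 171, and all 9 mTEC markers with a probe set passed the filter described next. Of 14087 genes that passed a filter on low signal, 4119 changed at an adjusted p of 0.05 in limma, 1838 higher (13%) and 2281 lower (16.2%) in KO. The filter asked for a signal above the 40th percentile of the array on at least 5 arrays, and that percentile lay between 21.5 and 22.1. Within the mTEC list 2 of the 9 rose and 2 fell. Tnfrsf11a, which encodes the receptor RANK, rose from 425 ± 28.2 to 733 ± 35.2, and Krt5 from 1792 ± 415 to 2879 ± 291. Aire, the other known regulator of tissue antigens in mTECs, fell from 8791 ± 1156 to 6504 ± 1199 (limma adjusted p = 0.0282), a call lost without WT 3, WT 4 or WT 5 (adjusted p up to 0.0683). Krt14 fell from 1980 ± 455 to 1444 ± 152 (limma adjusted p = 0.0436), a call lost when any of WT 3, WT 4, WT 5, KO 6, KO 7, KO 8 or KO 9 was left out (adjusted p up to 0.108). WT 1 and KO 6 had the highest spike-in RNA of all arrays, with a mean of 393 and 557 over 15 control probe sets. The other arrays had 86.1 to 313, so WT 1 followed them without a clear gap. Without both of these arrays, Aire and Krt14 were called lower, with log2 changes of -0.39 and -0.56 (limma adjusted p = 1.99e-04 and 0.00345). WT 1 was the lowest WT array for both genes, at 6966 and 1346, and KO 6 the lowest KO array for Aire, at 4368. The change of each tested WFDC gene is given with and without WT 1 and KO 6.

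The 5 tested members gave 3 genes that rose in KO, Wfdc12, Wfdc15b and Slpi, and none that fell. The other tested members, Wfdc2 and Wfdc1, did not pass the threshold, and Wfdc3, Wfdc5 and Wfdc15a did not pass the filter. The 3 of 5 that rose stand beside 13% of all genes tested, with the choice of the family known to favour that direction. In 2 of 5, Wfdc12 and Wfdc15b, every KO array lay above every WT array, against 10.1% of all genes tested. The median log2 change of the 5 tested members was 0.31, and that of all genes tested was -0.03. The same 3 members were called without WT 1 and KO 6, and their list's median was then 0.40. In sorted bulk RNA, more cells that express a gene and more RNA of it per cell cannot be told apart.

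**Figure D1:**
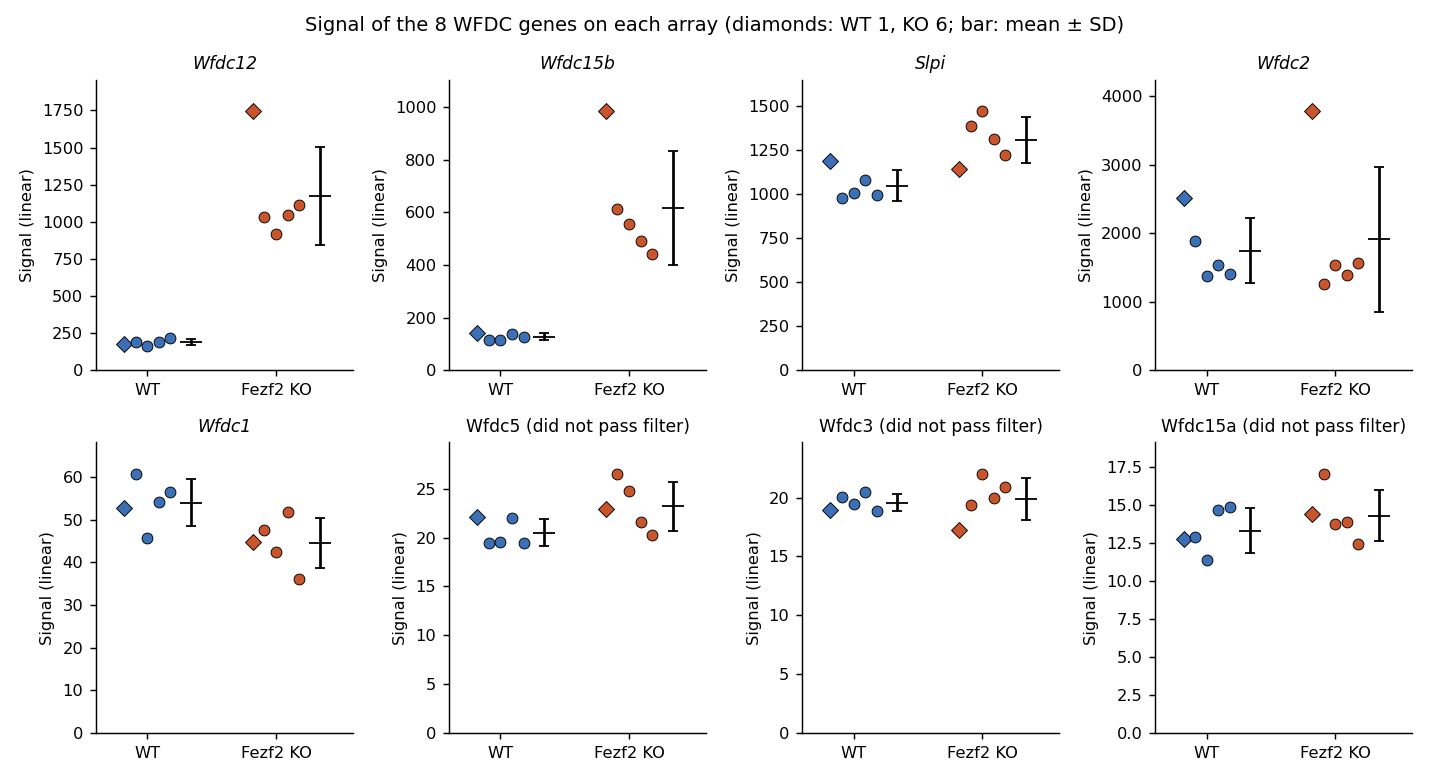
Linear signal of the chosen probe set of each of the 8 WFDC genes on the 5 WT (blue) and 5 Fezf2 KO (orange) arrays, with the group mean and SD beside the points and WT 1 and KO 6 drawn as diamonds. The groups of Wfdc12 and Wfdc15b do not overlap, those of the other 6 genes do, and KO 6 is the highest KO array for Wfdc12, Wfdc15b and Wfdc2 but the lowest for Slpi and Wfdc3.

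Wfdc12 and Wfdc15b stand 1 gene apart on chromosome 2, with Wfdc15a between them, and Slpi follows further along the same strand. Their upstream sequences are shown because 3 of these 4 genes rose and the other, Wfdc15a, had a signal near the bottom of the array. The sequences are the 250 bases before the annotated start of each gene, read from RefSeq on build GRCm38.p6, all from the minus strand and printed 5′ to 3′. They lie at chr2:164190559-164190808 for Wfdc12, chr2:164200118-164200367 for Wfdc15a, chr2:164221664-164221913 for Wfdc15b and chr2:164356508-164356757 for Slpi. Capitals mark CAGCAC, a repeat that was noticed only after the letters of Wfdc12 had been seen.
Wfdc12: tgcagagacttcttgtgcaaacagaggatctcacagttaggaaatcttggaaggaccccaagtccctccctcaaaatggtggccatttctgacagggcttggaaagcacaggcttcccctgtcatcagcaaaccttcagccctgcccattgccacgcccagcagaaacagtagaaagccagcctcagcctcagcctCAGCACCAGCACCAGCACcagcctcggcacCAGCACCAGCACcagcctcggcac
Wfdc15a: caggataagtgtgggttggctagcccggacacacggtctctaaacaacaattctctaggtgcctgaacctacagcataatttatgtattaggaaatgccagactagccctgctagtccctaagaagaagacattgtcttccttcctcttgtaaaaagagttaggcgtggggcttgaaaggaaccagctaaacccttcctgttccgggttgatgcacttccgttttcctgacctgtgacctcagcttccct
Wfdc15b: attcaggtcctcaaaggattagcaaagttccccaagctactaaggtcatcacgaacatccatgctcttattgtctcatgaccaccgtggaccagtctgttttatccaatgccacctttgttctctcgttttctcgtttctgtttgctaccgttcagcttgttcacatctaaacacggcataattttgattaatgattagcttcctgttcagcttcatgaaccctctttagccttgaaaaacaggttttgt
Slpi: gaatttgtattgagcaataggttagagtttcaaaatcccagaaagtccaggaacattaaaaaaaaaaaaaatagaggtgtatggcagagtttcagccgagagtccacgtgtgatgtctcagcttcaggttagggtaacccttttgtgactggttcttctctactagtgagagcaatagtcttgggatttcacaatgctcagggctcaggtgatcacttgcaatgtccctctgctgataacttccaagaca
The Wfdc12 window held 5 copies of CAGCAC close to the start. On the printed strand, at least 5 copies stood in 2 of 32851 windows of the same length (0.00609%), Wfdc12 included. The letters and the count were taken from the Wfdc12 window itself, so this share is no test. The windows of Wfdc15a, Wfdc15b and Slpi held no copy, so the repeat is not shared by the genes that rose. GC content was 57.2% for Wfdc12, 48.0% for Wfdc15a, 41.6% for Wfdc15b and 42.0% for Slpi, against a median of 52.4% over all windows. TATAAA, the TATA box, is in 12.4% of all windows on either strand, TGANTCA, the AP-1 site, in 6.75%, and GGGANTTTC, a form of the NF-kB site, in 0.941%. None of these letters occurred in the windows of the 6 members that the table holds, which says nothing about the factors.

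Wfdc12, a WAP protein with antibacterial activity, changed most. Its signal was 177, 188, 163, 190 and 217 on WT 1 to WT 5 and 1748, 1034, 921, 1045 and 1117 on KO 6 to KO 10. The lowest KO array was thus far above the highest WT array, and among the KO arrays KO 6 stood alone at the top. The means were 187 ± 20.1 in WT and 1173 ± 329 in KO (SD, n = 5), a log2 change of 2.52 (SE 0.15, 95% interval 2.20 to 2.83, limma adjusted p = 3.45e-07), the third largest rise of all genes tested. All log2 changes are on log2(signal + 16), which understates changes at low signal. Without WT 1 and KO 6 the means were 190 and 1029 and the log2 change was 2.35.

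Wfdc15b was likewise higher on every KO array than on any WT array. Its signal was 142, 115, 116, 139 and 125 on WT 1 to WT 5 and 986, 611, 557, 490 and 442 on KO 6 to KO 10. KO 6 was again the highest, but KO 10, the second highest array for Wfdc12, was the lowest KO array for Wfdc15b. The means were 128 ± 12.5 and 617 ± 216 (SD, n = 5), and the log2 change was 2.09 (SE 0.17, 95% interval 1.71 to 2.46, limma adjusted p = 4.64e-06), the tenth rank by rise among the genes tested. Without WT 1 and KO 6 the means were 124 and 525 and the log2 change was 1.94. The KO arrays spread further than the WT arrays in both genes: the highest KO array was 1.90 times the lowest for Wfdc12 and 2.23 times for Wfdc15b, and the highest WT array was 1.34 and 1.23 times the lowest.

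Slpi rose far less. Its signal was 1185, 975, 1002, 1081 and 992 on WT 1 to WT 5 and 1143, 1382, 1470, 1312 and 1222 on KO 6 to KO 10. The groups met at the arrays with the highest spike-in signal: KO 6 was the lowest KO array and lay below WT 1, the highest WT array. The means were 1047 ± 87.6 and 1306 ± 129 (SD, n = 5), and the log2 change was 0.31 (SE 0.08, 95% interval 0.14 to 0.49, limma adjusted p = 0.0108). Without WT 1 and KO 6, all 4 KO arrays left were above all 4 WT arrays left. The log2 change was then 0.40 (95% interval 0.26 to 0.55, limma adjusted p = 9.2e-04). Leaving out the highest WT and the lowest KO array widens the difference by itself. KO 6, highest for Wfdc12 and Wfdc15b, was therefore not the highest for every member that rose.

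Wfdc2 had a wide spread and no call. Its signal was 2519, 1892, 1380, 1534 and 1411 on WT 1 to WT 5 and 3788, 1264, 1531, 1394 and 1572 on KO 6 to KO 10. KO 6 was 2.41 times the next KO array, WT 1 was the highest WT array, and the other KO arrays lay inside or below the range of WT. The means were 1747 ± 477 and 1910 ± 1057 (SD, n = 5), with a log2 change of 0.03 (SE 0.27, 95% interval -0.55 to 0.62, limma adjusted p = 0.94). Without WT 1 and KO 6 the means were 1554 and 1440, and the log2 change was -0.10 (95% interval -0.33 to 0.12, limma adjusted p = 0.49). The higher KO mean of Wfdc2 thus rested on KO 6.

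Wfdc1, the member outside the cluster, on chromosome 8, was dim. Its signal was 52.8, 60.8, 45.8, 54.0 and 56.5 on WT 1 to WT 5 and 44.8, 47.5, 42.3, 51.7 and 36.1 on KO 6 to KO 10. The means were 54.0 ± 5.50 and 44.5 ± 5.83 (SD, n = 5), the groups overlapped, and the log2 change was -0.21 (SE 0.08, 95% interval -0.39 to -0.03, limma adjusted p = 0.0748). Without WT 1 and KO 6 the log2 change was -0.22 (limma adjusted p = 0.107). It was called lower when WT 3 was left out, at -0.26 with a limma adjusted p of 0.041, and when KO 9 was left out, at -0.25 with 0.0466.

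The remaining members were near the bottom of the array. Wfdc5 lay between 19.4 and 22.1 in WT and between 20.2 and 26.6 in KO, and exceeded the 40th percentile on 4 arrays. Wfdc3 lay between 18.8 and 20.5 in WT and between 17.2 and 22.0 in KO and exceeded it on 1 array, and its dimmer probe set lay between 12.8 and 19.3 over all arrays. Wfdc15a, which sits between the genes with the largest rises, lay between 11.4 and 14.9 in WT and between 12.4 and 17.1 in KO and exceeded it on no array. With the filter removed, the same 3 of 8 members were called and none of these low genes was.

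**Figure D2:**
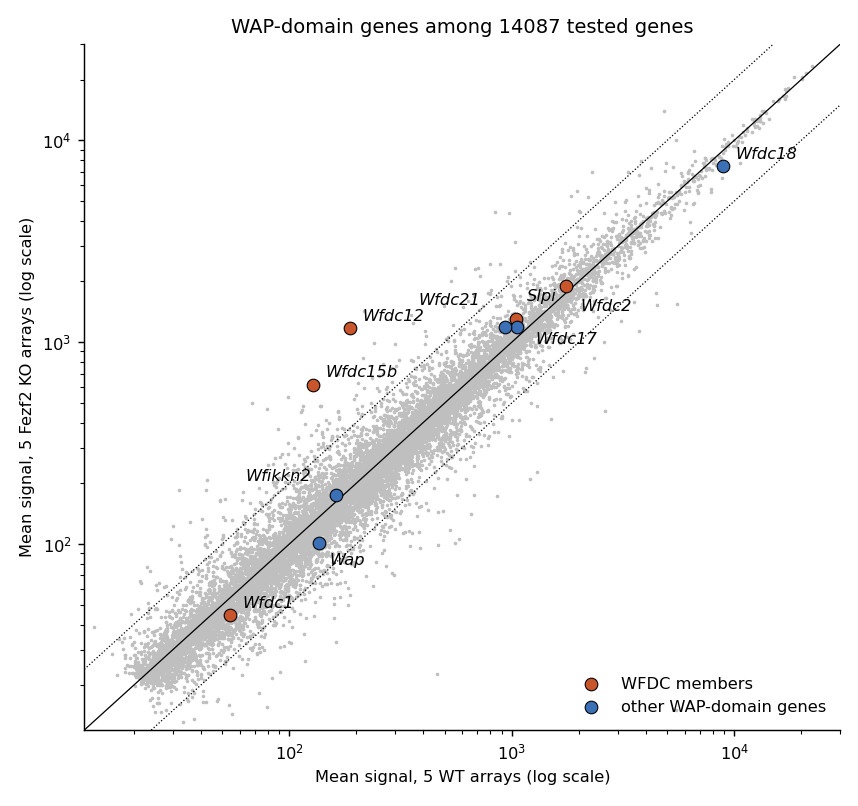
Mean signal over the 5 KO arrays against mean signal over the 5 WT arrays for the 14087 genes tested (grey), both axes on a log scale, with the tested WFDC members in orange and other WAP-domain genes in blue. The solid line marks equal means and the dotted lines a factor of 2; Wfdc12 and Wfdc15b lie far above the upper dotted line, and the other named genes lie between the dotted lines.

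The large rises of Wfdc12 and Wfdc15b were not shared by the tested genes around them. RefSeq places 7 of the 8 members on chromosome 2, and their stretch, with 10 protein-coding genes on each side, holds 52 protein-coding genes. Of the 45 that are not members, 24 were tested, 3 rose, 2 fell and 19 did not pass the threshold. These counts stand beside 13% higher and 16.2% lower of all genes tested. The 5 with a call all lay in the flanks and none between the members, where 9 of 25 genes were tested. Without a call, the tested seminal vesicle genes there had log2 changes of 0.11 to 0.37. Those of Sdc4, Pigt, Dbndd2, Sys1 and Matn4 were 0.27, 0.30, 0.21, 0.07 and -0.005. The median of all genes tested was -0.03. Ctsa, which encodes a lysosomal carboxypeptidase, rose from 642 ± 37.7 to 966 ± 64.6 (log2 change 0.58). Neurl2 rose by a log2 change of 0.40 and Zswim1 by 0.30. Ada, which encodes adenosine deaminase, fell by 0.43, a call lost without WT 2 or KO 10, and Zswim3 fell by 0.23, a call lost when any of 6 arrays was left out (highest adjusted p 0.055 and 0.0949). The seminal vesicle genes between Wfdc15b and Slpi had no call: Svs4, the brightest of them, was 238 ± 37.9 in WT and 317 ± 72.7 in KO (limma adjusted p = 0.104). Svs4 and Svs5 were called higher without WT 1 and KO 6, with log2 changes of 0.57 and 0.39.

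**Figure D3:**
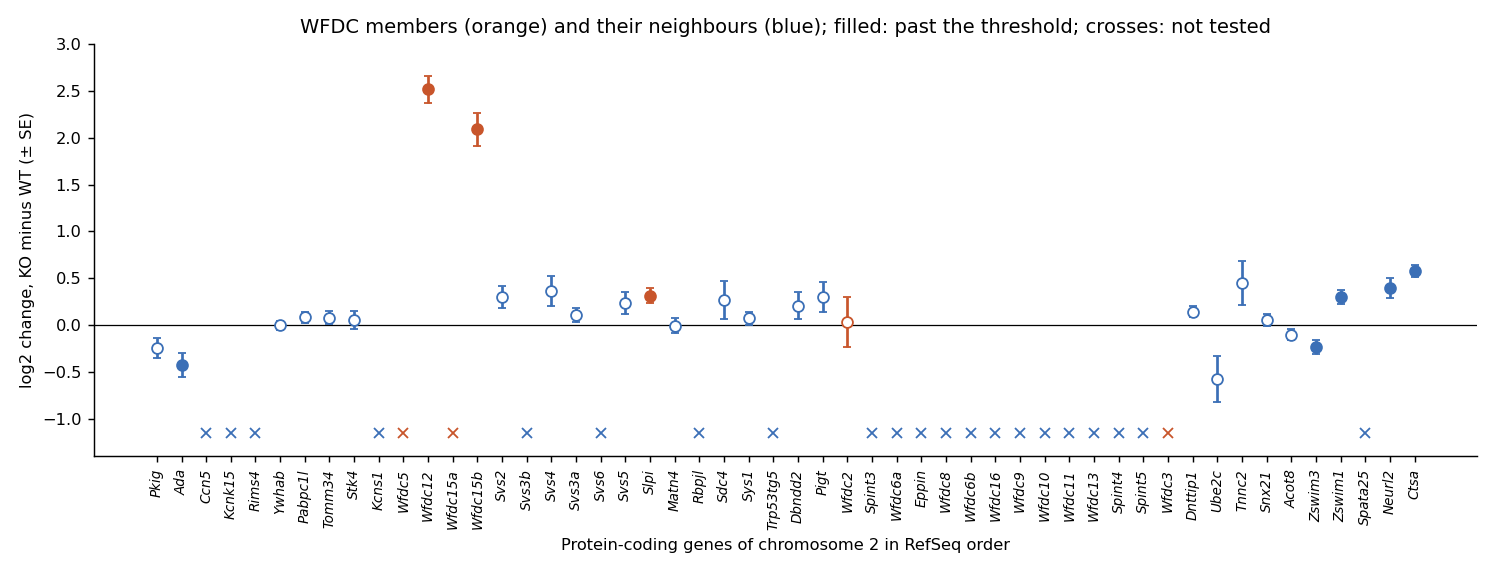
Log2 change, KO minus WT, with its SE, of the tested protein-coding genes of chromosome 2 in RefSeq order, with members in orange, other genes in blue, filled points past an adjusted p of 0.05 and crosses for genes not tested. Wfdc12, at 2.52, and Wfdc15b, at 2.09, stand above the other tested genes of the stretch, of which the next highest with a call is Ctsa at 0.58.

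The genes whose pattern over the 10 arrays was nearest to that of Wfdc12, after each gene was centred on its own mean, were Fetub, Msln and Wfdc15b. Their root mean square differences from Wfdc12 were 0.28, 0.28 and 0.29 in log2 signal. Fetub, which encodes the protease inhibitor fetuin B, was 98.3 ± 11.8 in WT and 537 ± 57.5 in KO, and Msln, which encodes the surface protein mesothelin, was 839 ± 46.7 and 4401 ± 128 (SD, n = 5). Nearest to Wfdc15b were F3, St3gal4 and Krt6a, at 0.17, 0.19 and 0.24. F3, which encodes tissue factor, the initiator of coagulation, was 135 ± 23.0 in WT and 613 ± 278 in KO, with KO 6 at 1110. Krt6a, a keratin of stratified epithelia under stress, was 214 ± 60.9 and 832 ± 272, with KO 6 at 1310, and the sialyltransferase gene St3gal4 was 88.7 ± 19.5 and 371 ± 85.5, with KO 6 at 501. In the 3 genes nearest to Wfdc15b, KO 6 was again the highest array, whereas Msln was lowest on KO 6 among the KO arrays, at 4215. These likenesses are over 10 arrays that include the genotype difference, and they carry no test.

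Of 16 other WAP-domain genes, 8 had a probe set and 5 were tested. Of these, 1 rose, 1 fell and 3 did not pass the threshold, with a median log2 change of 0.10. Over all genes tested, 13% rose and 16.2% fell. Wfdc21, of the group with Wfdc17 and Wfdc18 on chromosome 11, rose from 936 ± 141 to 1191 ± 142 (log2 change 0.35, limma adjusted p = 0.0323). Its log2 change was also 0.35 without WT 1 and KO 6 (adjusted p = 0.027). The call was lost when any of WT 2, WT 4, WT 5, KO 6, KO 7, KO 8 or KO 9 was left out, with an adjusted p of up to 0.0831. Wap, the milk protein that gave the domain its name, was 169, 129, 128, 134 and 121 on WT 1 to WT 5 and 98.4, 104, 88.7, 112 and 100.4 on KO 6 to KO 10. All KO arrays of Wap lay below all WT arrays, and the log2 change was -0.38 (limma adjusted p = 0.00839), or -0.30 without WT 1 and KO 6 (adjusted p = 0.0135). Wfdc17, known from activated macrophages, was 1059 ± 370 and 1186 ± 142 (adjusted p = 0.421, and 0.122 without WT 1 and KO 6). Wfdc18, a secreted protein known from mammary gland, was 8882 ± 1958 and 7459 ± 864 (adjusted p = 0.193, and 0.0914 without WT 1 and KO 6), on a probe set whose suffix marks probes shared between transcripts. With those 2 arrays as a block, Wfdc18 was called lower, with a log2 change of -0.23 (limma adjusted p = 0.0252). Wfikkn2, which joins a WAP domain to other inhibitor domains, was 163 ± 39.6 and 175 ± 43.0 (adjusted p = 0.702). Wfdc6a, Eppin and Wfikkn1 did not pass the filter.

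The counts of other inhibitor families stand beside the 13% higher and 16.2% lower of all genes tested. Of 12 Kunitz and Kazal inhibitors tested, 4 rose and 2 fell, with a median log2 change of 0.06. Spink5, which encodes the epidermal inhibitor LEKTI, rose from 799 ± 243 to 1749 ± 606, with KO 6 at 2796. Spink8 and Spink12 rose by log2 changes of 1.37 and 1.04, Spint1, an inhibitor of membrane-bound serine proteases, rose by 0.26, and Spink4 and Spink10 fell by 1.19 and 0.55. Of 10 cystatins and stefins, which inhibit cysteine proteases, 2 rose and none fell, with a median of 0.03: Cst6 rose from 1999 ± 335 to 4471 ± 1033 and Csta1 from 134 ± 34.5 to 296 ± 79.0. Wfdc12 and Wfdc15b changed by more than any tested gene of these 2 lists, the largest of which was Spink8.

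Serine proteases were read from 2 further lists, of which Elane and Ctsg are known targets of Slpi, again beside 13% higher and 16.2% lower over all genes tested. Of 11 leukocyte serine proteases tested, 7 fell and none rose, with a median log2 change of -0.40, and 4 to 6 fell when an array was left out. The mast cell proteases Mcpt2, Mcpt4 and Tpsab1 fell by 0.81, 0.55 and 1.23, the last losing its call without KO 6 (adjusted p = 0.0564). Tpsab1 lay between 27.8, on WT 1, and 157 in WT and between 16.2 and 26.6 in KO, near the 40th percentile. Mcpt4 lay between 44.7 and 63.9 in WT and between 22.8 and 41.7 in KO. Mcpt2 was brighter, at 287 ± 33.0 and 158 ± 29.7. Ctsg, which encodes cathepsin G, a target of Slpi, was 64.5 ± 5.34 in WT and 44.8 ± 16.5 in KO, a log2 change of -0.44 (limma adjusted p = 0.0458). The Ctsg call was lost when any array but KO 9 was left out, with an adjusted p of up to 0.0961, and it was also lost without WT 1 and KO 6. Elane, which encodes neutrophil elastase, lay between 13.2 and 17.3 on all arrays and did not pass the filter. Of 19 epithelial serine proteases, 5 rose and 6 fell, with a median of 0.06. Prss27 rose from 114 ± 20.3 to 461 ± 294 and Plau, the urokinase gene, from 99.3 ± 22.0 to 219 ± 38.5. Prss30, Tmprss2, Tmprss4 and the kallikreins Klk5, Klk7 and Klk8 fell, by 0.43 to 1.38 on the log2 scale.

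**Figure D4:**
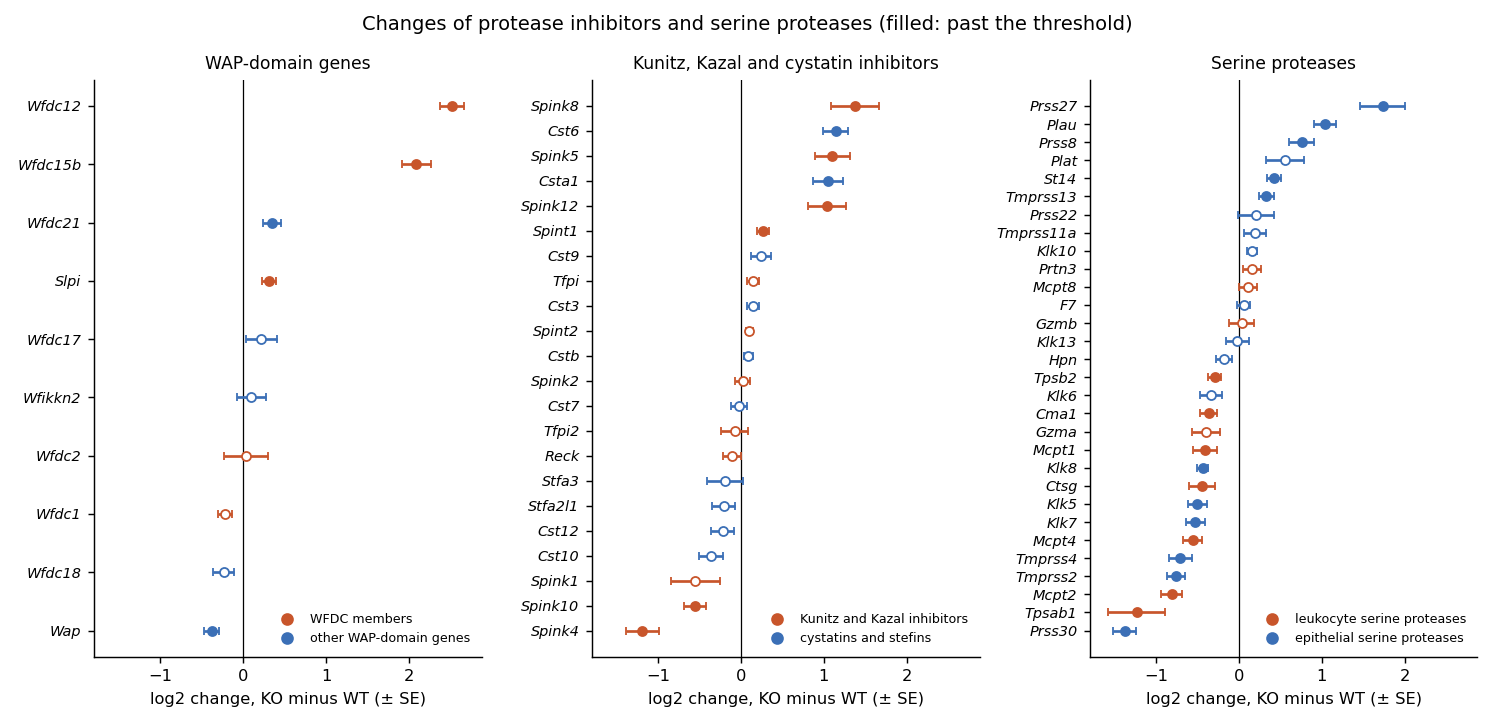
Log2 change, KO minus WT, with its SE, of the tested genes of the WAP-domain, other inhibitor and serine protease lists, filled where the adjusted p was below 0.05. Wfdc12 and Wfdc15b lie at the far right of all panels, the leukocyte serine proteases (orange, right panel) with a call lie left of 0, and the epithelial proteases spread to both sides.

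Markers of other cells that carry WFDC transcripts were measured beside the members, and their part in the results was not tested. The marker counts here and in the next paragraph stand beside 13% higher and 16.2% lower of all genes tested. Of 13 markers of airway and gland secretory cells, 5 rose and 3 fell, with a median log2 change of 0.03. Their summed signal was 7729 to 12468 in WT and 11531 to 18878 in KO. WT 1 and KO 6 were the highest array of their group in that sum, as they were for Wfdc2, and without them it was at most 9422 in WT and 13101 in KO. Scgb1a1, a club cell secretory protein, rose from 1205 ± 269 to 2492 ± 481, and Ltf, which encodes lactoferrin, from 886 ± 304 to 2442 ± 896. Bpifa1, an airway secretory protein and the largest part of the summed signal, was 3998 ± 952 and 5783 ± 1404, with KO 6 at 8143. Its call was lost when any of WT 2, WT 3, WT 4, WT 5, KO 6, KO 8 or KO 10 was left out (adjusted p up to 0.0798). Without WT 1 and KO 6 together, Bpifa1 was called higher (limma adjusted p = 0.0038). Bpifb1, a related protein, fell by a log2 change of 0.79. Of 19 cornified cell markers, 11 rose and 3 fell, with a median log2 change of 0.46 and a summed signal of 10882 to 14968 in WT and 17894 to 22795 in KO. Scel rose by a log2 change of 2.62 and Sprr1a by 1.51, while the keratin gene Krt10 fell by 2.47.

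Slpi is also a neutrophil and macrophage product. Of 11 neutrophil markers with a probe set, 7 were tested. S100a8 and Ltf, the latter also counted among the secretory markers, rose, Camp fell and 4 did not pass the threshold. The summed signal of the 7 was 8395 to 12921 in WT and 12210 to 15916 in KO, while their median log2 change was -0.06. S100a8, at 4859 ± 1159 in WT and 7062 ± 521 in KO, was the largest part of that sum. The call of Camp was lost without WT 2 (adjusted p = 0.0533). Elane, Cxcr2, Csf3r and Mmp8 did not pass the filter. Mpo, Ngp and Camp passed it, with means of 463, 449 and 498 in WT and 441, 389 and 289 in KO. In the fit without WT 1 and KO 6, 8 neutrophil markers were tested and 4 rose. Mmp8 (log2 change 0.44, limma adjusted p = 0.00134) and S100a9 (0.42, adjusted p = 0.0397) were added to S100a8 and Ltf. The filter of that fit asked for 4 of its 8 arrays, which the KO arrays alone can meet. Mmp8, at 19.9 ± 1.51 in WT, entered under that looser filter, so its call gives no support. Slpi was higher in that fit as in the fit of all arrays. Of 11 macrophage and dendritic markers tested, 4 rose and 5 fell, with a median log2 change of 0.08. Their summed signal was 6775 to 7350 in WT and 5334 to 6639 in KO. Lyz2, at 4291 ± 190 in WT and 3187 ± 326 in KO, was the largest part of that sum. Mpeg1 rose by 2.62 and Lyz2 fell by 0.43 on the log2 scale. None of 8 thymocyte markers tested was called, with a sum of 913 to 1171 in WT and 557 to 1241 in KO. Of 10 fibroblast and smooth muscle markers, 2 rose and 1 fell, with a sum of 4398 to 6035 in WT and 4457 to 5104 in KO.

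**Figure D5:**
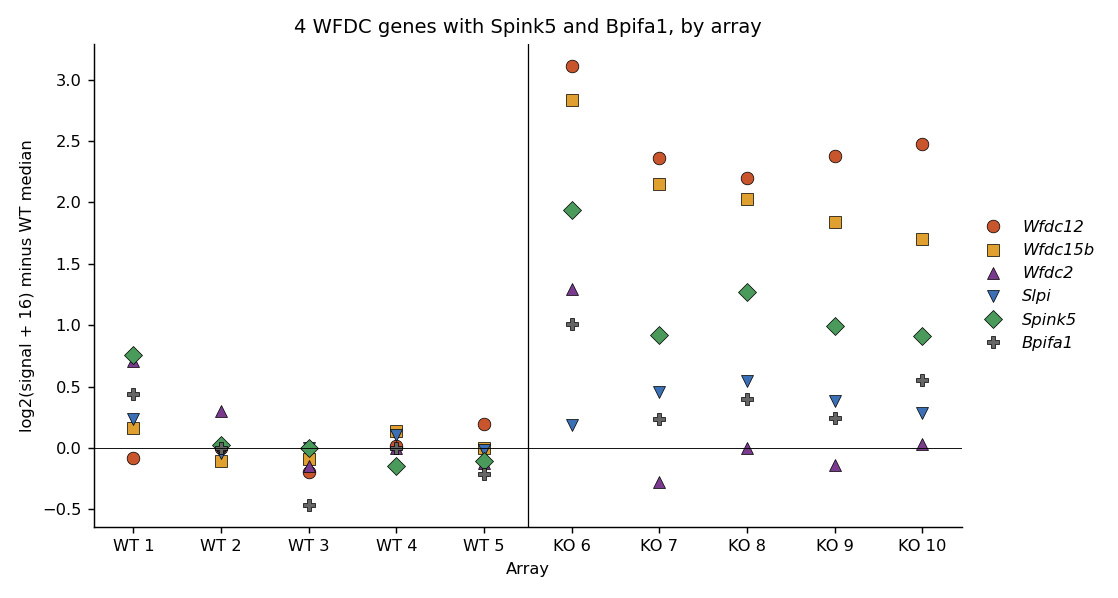
Log2(signal + 16) of Wfdc12, Wfdc15b, Wfdc2, Slpi, Spink5 and Bpifa1 on each array, minus the WT median of the same gene. Wfdc12, Wfdc15b, Wfdc2, Spink5 and Bpifa1 are highest on KO 6, Slpi is not, and on the other KO arrays Wfdc12 and Wfdc15b stay far above 0 whereas Wfdc2 lies close to it.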

How the data were processed

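RNA of CD45-, EpCAM+, CD80hi mTECs was hybridised to 10 Affymetrix arrays, 5 WT and 5 Fezf2 KO. The authors deposited a linear intensity for each of 45101 probe sets, and MAS5, with no version, is the tool in the submitters' processing notes. The scaling, the background step and any scan batch are not stated in the labels or notes used here. Of these probe sets, 34958 had 1 gene symbol in the platform annotation. Each gene was represented by its probe set of highest mean among those above the 40th percentile of their array on at least 5 arrays. Signals were analysed as log2(value + 16) in limma 3.58.1 (R 4.3.3; lmFit, eBayes with trend and robust estimation), KO minus WT, with Benjamini-Hochberg adjustment over 14087 genes and a threshold of 0.05. Array number limits the precision. The highest correlation between any 2 arrays was 0.997, so none was a copy. Alternatives were other offsets, normalizations, filters, probe set choices, variance models, blocks and arrays left out. The members and lists were chosen with earlier results of these data known. Named genes were drawn from all members, up to 4 called genes of each list by adjusted p (not all are printed), called neighbours, the 3 nearest genes to members changed by a log2 of at least 1, and Fezf2. Others named, such as Ctsg, Elane, Epcam, Bpifa1 and Svs4, complete a list's description and were picked after their values were seen. Gene names and order are from RefSeq GRCm38.p6.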

Additional observations from a re-analysis of the deposited data

Results flagged for a closer look

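Among 20 groups of 5 arrays, 1 for each genotype of the 10 WAP-domain genes tested, 3 held an array whose gap to the nearest of the others was above 0.71 of the group's whole range. Chance alone sets apart an array in about 1 in 20 groups. Wfdc2 on KO 6 was 3788, against 1264 to 1572 on the other KO arrays, a gap of 0.878 of the range. Wfdc12 on KO 6 was 1748, against 921 to 1117, a gap of 0.763 of the range. Wap on WT 1 was 169, against 121 to 134 on the other WT arrays, a gap of 0.722 of the range. All 3 values were on the arrays with the highest spike-in signal, and the part of that signal in them was not tested.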

How the results depend on the processing

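Over 24 alternatives, Wfdc12 kept its direction and its call, with a log2 change of 2.27 to 2.61, as did Wfdc15b, at 1.78 to 2.21. Slpi kept its direction, at 0.27 to 0.40, and lost its call only at an adjusted p threshold of 0.01. Wfdc2 changed sign in 7 of 24 alternatives, from -0.24 to 0.18, without a call in any. At the threshold of 0.01, 2473 genes were called over the whole table, of which 2 were members, since a stricter threshold passes fewer genes. With each array left out in turn, 3413 to 4171 genes and 3 to 4 members were called, the fourth being Wfdc1. With WT 1 and KO 6, the arrays of highest spike-in signal, as a block, 3 members were called. The same count was called with the arrays of low Xist signal, WT 2, KO 6 and KO 8, as a block. Wfdc18 was called lower under the spike-in block (adjusted p = 0.0252), and Wfdc21 was not called under the Xist block (adjusted p = 0.0528). No paired analysis was made because the labels name no pairs of WT and KO arrays. The running numbers, 1 to 5 in WT and 6 to 10 in KO, neither show nor exclude a pairing. Wfdc3, Wfdc5 and Wfdc15a had too little signal for a change to be read.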
